A study of Mus musculus with 54 samples.

Results

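The genes described here are the NFAT transcription factors of T cells, the subunits of calcineurin and the RCAN inhibitors of calcineurin. The 10 members were taken by name from both count tables: Nfatc1, Nfatc2, Nfatc3 and Nfat5, Ppp3ca, Ppp3cb, Ppp3cc and Ppp3r1, and Rcan1 and Rcan3. They are 10 of the 55385 genes listed in each table, and all 10 had reads in every library, the lowest value being 208 reads of Ppp3ca. Naive CD4+ T cells of C57BL/6 mice were pooled from lymph nodes and spleens and measured by RNA sequencing without stimulation (0 h) or after 4 h or 20 h with plate-bound anti-CD3 at 3 µg/ml and soluble anti-CD28 at 1 µg/ml. In the first of 2 experiments, called the CD5/CD6 experiment, magnetically enriched cells were WT, Cd5-/-, Cd6-/- or Cd5-/-Cd6-/- (dKO). The dKO allele is a deletion made with guides at exon 1 of Cd5 and next to exon 1 of the neighboring Cd6 gene. Each genotype and time had 3 libraries. In the second, the LAT experiment, cells were isolated with a flow sorter from Lat fl-dtr maT-Cre mice, in which Cre acts in mature T cells, as WT (hDTR+) or Lat-/- (hDTR-) cells, again with 3 libraries for each genotype and time, so WT and Lat-/- cells there came from Cre-bearing animals. The mice were young adults, and the Cd6-/- allele is a small deletion at the start codon, so that Cd6 reads remain in these cells.

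When the T-cell receptor is engaged, calcium released from internal stores and then entering from outside binds calmodulin, and calmodulin switches on the phosphatase calcineurin. Calcineurin removes phosphates from NFATc1, NFATc2 and NFATc3, which move into the nucleus and act on cytokine and activation genes, whereas NFAT5 lacks the calcineurin docking region and is known for the response to high salt. Each calcineurin enzyme joins a catalytic subunit, encoded by Ppp3ca, Ppp3cb or Ppp3cc, to the regulatory subunit encoded by Ppp3r1, and RCAN proteins bind calcineurin and restrain it. Control of this pathway is largely at the level of protein phosphorylation, which RNA counts do not show.

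Total counts per library ran from 20554354 to 45222554 in the CD5/CD6 experiment and from 17784644 to 28501095 in the LAT experiment. The targeted genes matched the labels except in 2 unstimulated libraries, the 0 h libraries 2 labelled Cd5-/- and Cd6-/-, which were kept under their labels. Levels are given as CPM, the counts of a gene scaled to a common library size with edgeR's TMM factors. CPM is relative to the other RNA of a library, so amounts of RNA per cell were not measured. Lat had 213.6 to 292 CPM in unstimulated WT cells of the LAT experiment and 11.6 to 19.1 in Lat-/- cells. The summed level of the T-cell markers Cd3d, Cd3e, Cd3g, Cd4 and Trac was 4161 to 6513 CPM in all unstimulated libraries. At 20 h it was 2227 to 2588 CPM in the CD5/CD6 experiment. In the LAT experiment it was 2316 to 2597 CPM in WT and 4079 to 4690 CPM in Lat-/- cells at 20 h. B-cell markers summed to 59.9 to 538 CPM in the enriched and 1.43 to 4.73 CPM in the sorted unstimulated libraries. In the enriched libraries these B-cell markers summed to 35.6 to 193 CPM at 4 h and 1.24 to 4.46 CPM at 20 h, and the natural killer cell markers Ncr1 and Klrb1c from 4.27 to 33.2 CPM at 0 h to at most 0.795 CPM at 20 h. Myeloid markers summed to 102 to 532 CPM at 0 h and 54.4 to 93.6 CPM at 20 h there. In the sorted libraries they summed to 65.1 to 124 CPM at 0 h and 67.3 to 93.8 CPM at 20 h. In the enriched Cd5-/- library 1 at 20 h, 4 of the 5 myeloid markers had no read while the sum was 64.2 CPM. The part of B, natural killer and myeloid cells in the changes over time was not tested. In such bulk samples, fewer cells carrying an RNA and less of that RNA in each cell cannot be told apart. Below, a gene "rose" or "fell" where edgeR's quasi-likelihood test, adjusted by the Benjamini-Hochberg method over all genes, gave an adjusted p under 0.05, and changes are log2 fold changes with their standard error (SE).

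In WT cells, stimulation raised Nfatc1 transiently, while Nfatc2 and Nfatc3 fell and were still below their 0 h levels at 20 h. Nfatc1 (ENSMUSG00000033016.16, chromosome 18, 80606205 to 80713071, minus strand, GRCm38) encodes the NFAT factor known for its inducible short isoform. In the CD5/CD6 experiment it measured 221, 203 and 235 CPM in the WT libraries at 0 h, 1411, 1267 and 1139 CPM at 4 h, and 294, 236 and 178 CPM at 20 h. All libraries at 4 h lay far above those at 0 h and 20 h, which overlapped. The rise at 4 h was 5.80-fold (log2 change 2.54, SE 0.193, adjusted p = 3.01e-19), and the fall from 4 h to 20 h was 5.40-fold (log2 change -2.43, adjusted p = 2.27e-18), which left 20 h against 0 h at 0.10 (95% interval -0.27 to 0.48, adjusted p = 0.782). In sorted WT cells of the LAT experiment, Nfatc1 measured 205, 138 and 195 CPM at 0 h, 1175, 1343 and 892 CPM at 4 h, and 264, 250.5 and 190.5 CPM at 20 h. Here too every library at 4 h exceeded all others, a 6.34-fold rise (log2 change 2.66, SE 0.156, adjusted p = 6.69e-63). At 20 h against 0 h the log2 change of Nfatc1 was 0.39 (adjusted p = 0.0256), a call that was lost without replicate 1 (0.42, adjusted p = 0.117) and without replicate 2 (0.13, adjusted p = 0.669).

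Nfatc2 (ENSMUSG00000027544.16, chromosome 2, 168476410 to 168601657, minus strand) encodes NFAT1, a factor already present in resting T cells. Its WT libraries of the CD5/CD6 experiment measured 126, 119 and 127 CPM at 0 h, 54.7, 43.8 and 32.8 CPM at 4 h, and 68.8, 47.2 and 29.6 CPM at 20 h. Both stimulated groups lay below the unstimulated one without overlap, and they overlapped each other. The fall was 2.84-fold at 4 h (log2 change -1.50, SE 0.245, adjusted p = 3.57e-07) and 2.55-fold at 20 h (log2 change -1.35, adjusted p = 2.37e-06). In the LAT experiment, sorted WT cells measured 121, 89.1 and 111 CPM at 0 h, 40.5, 50.1 and 36.9 CPM at 4 h, and 64.2, 63.3 and 41.3 CPM at 20 h, again with no overlap between stimulated and unstimulated libraries. Nfatc2 fell by 1.33 on the log2 scale at 4 h (adjusted p = 1.48e-16) and by 0.93 at 20 h (adjusted p = 1.01e-08). The fall was thus smaller at 20 h, where the libraries overlapped those at 4 h.

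Nfatc3 (ENSMUSG00000031902.10, chromosome 8, 106058840 to 106130537, plus strand) encodes NFAT4, an NFAT factor abundant in thymocytes. It measured 527, 472 and 394 CPM at 0 h in WT cells of the first experiment, 156, 175 and 164 CPM at 4 h, and 227, 169 and 122 CPM at 20 h. The unstimulated libraries stood above all stimulated ones, with a fall of 2.81-fold at 4 h (log2 change -1.49, SE 0.204, adjusted p = 3.01e-09) and 2.68-fold at 20 h (log2 change -1.42, adjusted p = 7.16e-09). Among sorted WT cells the values were 354, 215 and 405 CPM at 0 h, 149.6, 183 and 219 CPM at 4 h, and 195, 175 and 162 CPM at 20 h. Here 1 unstimulated library lay within the range at 4 h, and the log2 changes of Nfatc3 were -0.82 (adjusted p = 2.63e-07) and -0.87 (adjusted p = 2.67e-08).

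Nfat5 (ENSMUSG00000003847.16, chromosome 8, 107293470 to 107379517, plus strand) encodes the salt-responsive factor and varied widely between libraries of a group. WT cells of the CD5/CD6 experiment measured 70.0, 84.3 and 46.7 CPM at 0 h, 72.9, 86.7 and 48.5 CPM at 4 h, and 141, 85.7 and 45.7 CPM at 20 h. These groups overlapped throughout, and the log2 change of Nfat5 was 0.05 at 4 h (adjusted p = 1) and 0.44 at 20 h (95% interval -0.18 to 1.06, adjusted p = 0.291). In sorted WT cells it measured 63.5, 25.6 and 50.6 CPM at 0 h, 33.9, 49.4 and 30.0 CPM at 4 h, and 88.2, 77.2 and 60.7 CPM at 20 h, with the 4 h libraries below those at 20 h and the 0 h libraries overlapping both. The change of Nfat5 at 20 h against 0 h was 0.69 (adjusted p = 6.36e-05). Without replicate 2, whose unstimulated library was the lowest, the change of Nfat5 at 20 h was 0.33 (adjusted p = 0.162).

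**Figure D1:**
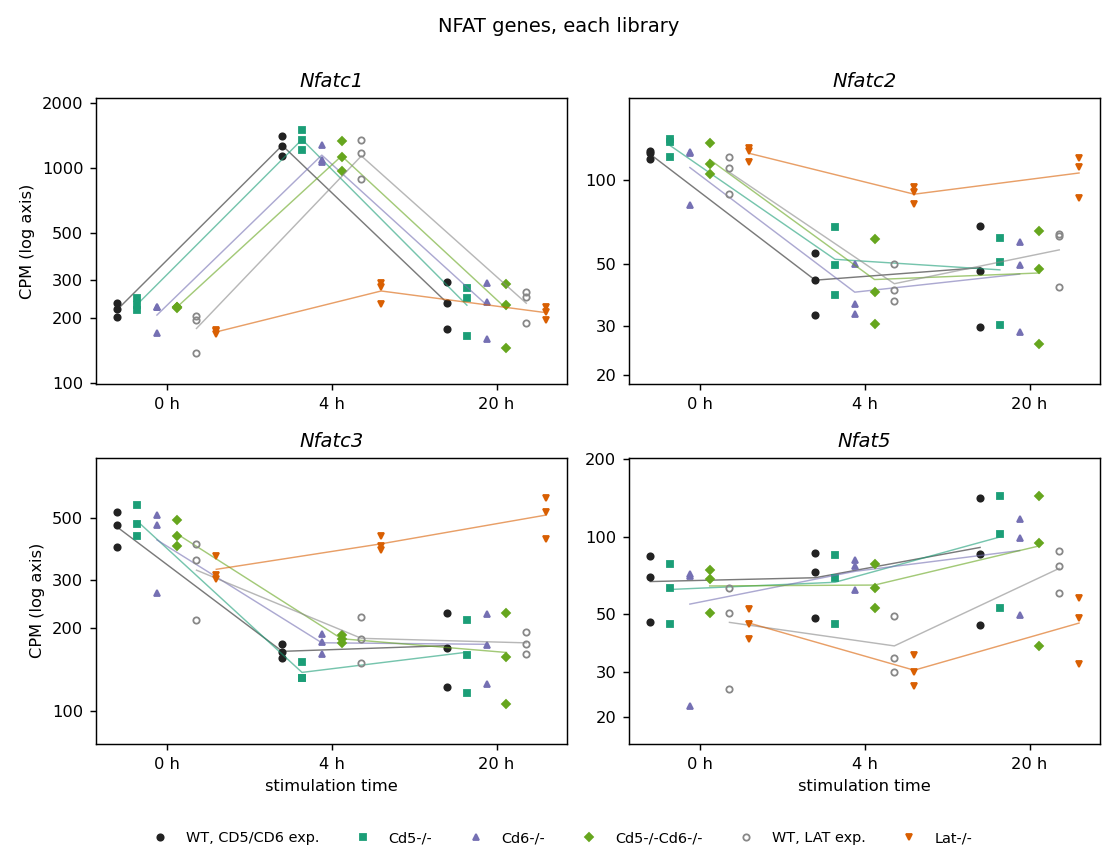
CPM of Nfatc1, Nfatc2, Nfatc3 and Nfat5 (y axes) in each library at 0, 4 and 20 h (x axes) for the genotypes of both experiments, with 1 point per library. Nfatc1 at 4 h lies between 892 and 1506 CPM in every group except the Lat-/- cells, where it lies between 232 and 293 CPM.

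Levels per kilobase of exon, a rough scale for setting genes side by side, use the length of all annotated exons of a gene. Rankings and shares on it depend on which transcripts were present, which was not measured. On this scale Nfatc3 was the most abundant of the 3 calcium-regulated NFAT RNAs in unstimulated WT cells of the CD5/CD6 experiment, at 39.6 ± 5.70 CPM per kilobase (SD, n = 3). Nfatc1 followed with 29.4 ± 2.19 and Nfatc2 with 11.7 ± 0.401 CPM per kilobase, and Nfat5 had 3.65 ± 1.03. As a share of the summed level of Nfatc1, Nfatc2 and Nfatc3, Nfatc1 made up 36.5% ± 3.75 at 0 h, 90.3% ± 0.69 at 4 h, then 62.4% ± 2.00 by 20 h. Among sorted WT cells the share of Nfatc1 was 39.1% ± 2.13, 88.2% ± 3.37 and 60.5% ± 1.35 at these times. The summed level itself was 80.7, 189 and 50.9 CPM per kilobase at 0, 4 and 20 h in the CD5/CD6 experiment, so the share of Nfatc1 stayed above its starting value at 20 h at a lower total.

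Among the calcineurin genes, Ppp3ca was the member that fell furthest. Ppp3ca (ENSMUSG00000028161.17, chromosome 3, 136670124 to 136937727, plus strand) encodes the alpha catalytic subunit. In WT cells of the first experiment it measured 83.5, 72.3 and 86.0 CPM at 0 h, 38.6, 37.2 and 44.2 CPM at 4 h, and 11.5, 12.1 and 9.36 CPM at 20 h. The 3 times did not overlap, and Ppp3ca fell 2.01-fold by 4 h (log2 change -1.01, SE 0.154, adjusted p = 7.26e-08) and 7.33-fold by 20 h (log2 change -2.87, SE 0.166, adjusted p = 8e-26). Sorted WT cells had 69.1, 93.8 and 79.4 CPM at 0 h, 36.8, 43.1 and 50.8 CPM at 4 h, and 11.9, 14.4 and 13.9 CPM at 20 h. The same order without overlap was seen there, with Ppp3ca 1.85-fold lower at 4 h (adjusted p = 9.18e-08) and 6.04-fold lower at 20 h (adjusted p = 2.11e-53).

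Ppp3cc (ENSMUSG00000022092.11, chromosome 14, 70217865 to 70289471, minus strand), the gamma catalytic subunit gene, was lowest at 4 h. Among sorted WT cells it measured 68.2, 70.7 and 78.1 CPM at 0 h, 26.1, 28.5 and 31.2 CPM at 4 h, and 55.0, 55.8 and 58.1 CPM at 20 h. These 3 groups did not overlap, and Ppp3cc fell by 1.34 on the log2 scale at 4 h (SE 0.159, adjusted p = 7.27e-16) and rose by 0.97 from 4 h to 20 h (adjusted p = 7.66e-09). In WT cells of the first experiment it measured 78.3, 67.4 and 56.4 CPM at 0 h, 33.3, 36.8 and 55.9 CPM at 4 h, and 53.5, 50.8 and 63.5 CPM at 20 h, and the highest library at 4 h nearly reached the lowest at 0 h. The 4 h change of -0.68 (adjusted p = 0.004) was lost without replicate 1 (-0.42, adjusted p = 0.203), and from 4 h to 20 h the change of Ppp3cc was 0.41 (adjusted p = 0.11). At 20 h against 0 h Ppp3cc changed by -0.27 in the first (adjusted p = 0.324, or -0.48 with adjusted p = 0.00264 without replicate 3) and by -0.36 in the second experiment (adjusted p = 0.0567, or -0.31 with adjusted p = 0.035 by DESeq2).

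The other catalytic gene, Ppp3cb (ENSMUSG00000021816.11, chromosome 14, 20499364 to 20546573, minus strand), and the regulatory gene Ppp3r1 (ENSMUSG00000033953.10, chromosome 11, 17159263 to 17200375, plus strand) moved within narrower limits. Ppp3cb measured 183, 167 and 163 CPM at 0 h, 208, 186 and 215 CPM at 4 h, and 132, 132 and 136 CPM at 20 h in WT cells of the first experiment, where it fell by 0.60 from 4 h to 20 h (adjusted p = 0.000624). In sorted WT cells Ppp3cb measured 146, 119.9 and 169 CPM at 0 h, 179, 192 and 155 CPM at 4 h, and 113, 125 and 112 CPM at 20 h, and it fell by 0.59 from 4 h to 20 h (adjusted p = 0.000451). In both experiments the 20 h libraries thus lay below every library at 4 h. Against 0 h, the 20 h change of Ppp3cb was -0.36 in the first experiment (adjusted p = 0.0496, lost without replicate 1 at adjusted p = 0.365, without replicate 2 at 0.149 and with the compared groups alone at 0.0804) and -0.31 in the second (adjusted p = 0.0935).

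Ppp3r1 measured 235, 186 and 229 CPM at 0 h, 204, 152 and 208 CPM at 4 h, and 253, 266 and 275 CPM at 20 h in WT cells of the first experiment, the highest group being that at 20 h. It rose by 0.49 from 4 h to 20 h (adjusted p = 0.0138, lost without replicate 2 at 0.34, adjusted p = 0.300), and against 0 h neither time passed the test (-0.21 and 0.29, adjusted p = 0.428 and 0.18). Among sorted WT cells Ppp3r1 stayed between 162 and 197 CPM in all 9 libraries, and none of the 3 comparisons of times passed the test. Under scaling to library totals alone, Ppp3r1 was lower at 4 h in both experiments (-0.45, adjusted p = 0.015, and -0.41, adjusted p = 0.0209). Exons of Ppp3r1 share 462 bases, 14.3% of its exonic length, with Wdr92 on the same strand, and reads from the shared bases could have been split in more than 1 way.

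Per kilobase of exon, Ppp3r1 was the highest of all 10 members in unstimulated WT cells of the CD5/CD6 experiment, at 67.1 ± 8.37 CPM per kilobase (SD, n = 3), against 22.6 ± 3.67 for Ppp3cc, 19.4 ± 1.21 for Ppp3cb and 8.08 ± 0.732 for Ppp3ca. The values of Ppp3cc and Ppp3cb lay within their spread. Of the summed catalytic subunit level, Ppp3ca made up 16.2% ± 2.18 at 0 h, 9.79% ± 0.423 at 4 h and 3.17% ± 0.602 at 20 h, and in sorted WT cells 16.7% ± 3.00, 12.9% ± 2.17 and 4.00% ± 0.291. At 20 h Ppp3cc held the largest share of the catalytic sum, 53.4% ± 2.75 in the first and 56.4% ± 1.85 in the second experiment.

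**Figure D2:**
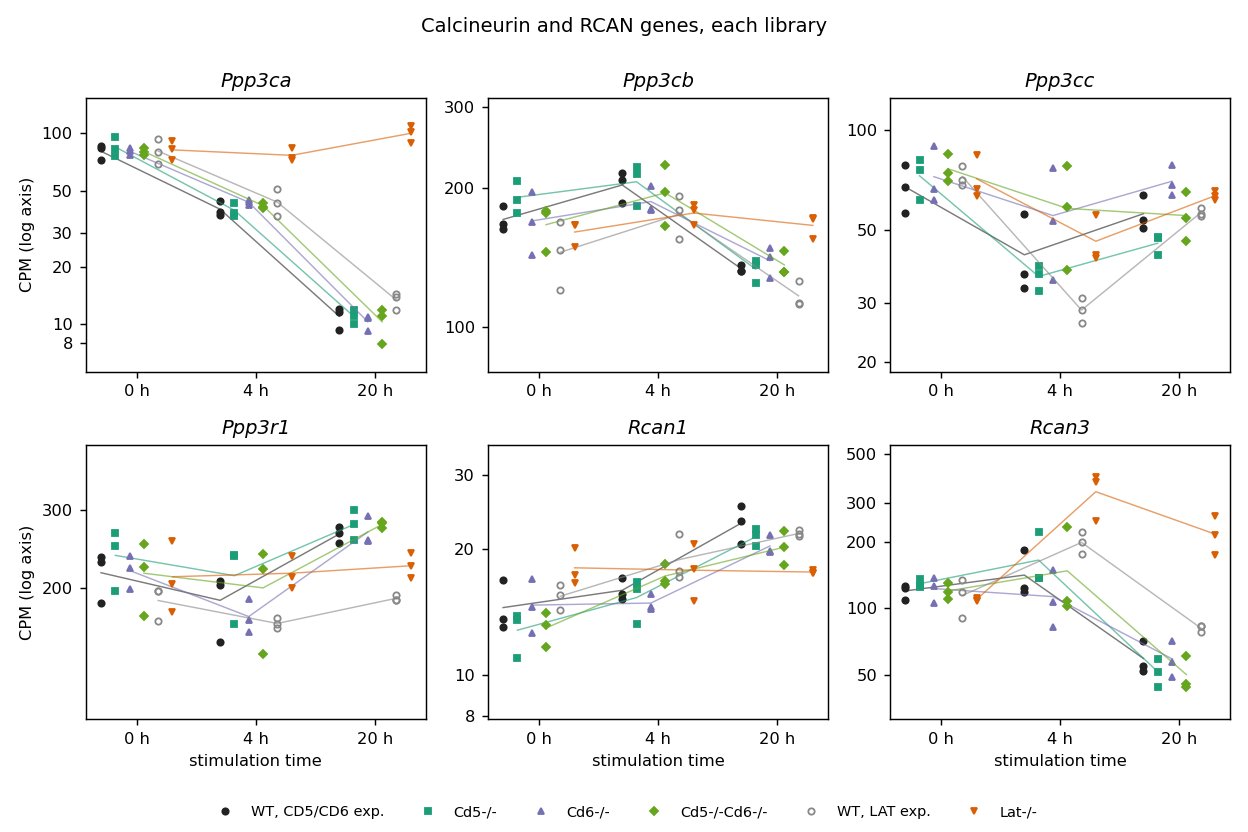
CPM of Ppp3ca, Ppp3cb, Ppp3cc, Ppp3r1, Rcan1 and Rcan3 (y axes) in each library at 0, 4 and 20 h (x axes) for the genotypes of both experiments, with 1 point per library. Ppp3ca drops to between 7.88 and 14.4 CPM at 20 h in all groups but the Lat-/- cells, which stay between 88.7 and 110.0 CPM.

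**Figure D3:**
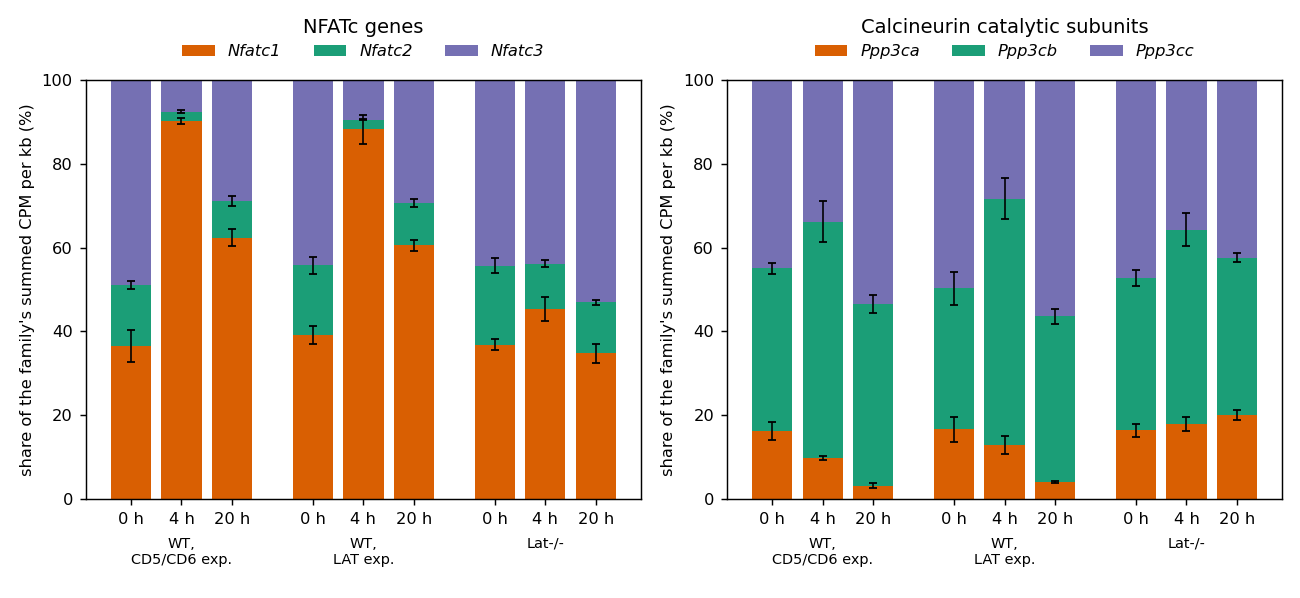
Share in percent (y axes) of each NFATc gene in the NFATc sum and of each catalytic gene in the calcineurin catalytic sum, computed per kilobase of exon, at 0, 4 and 20 h in WT cells of both experiments and in Lat-/- cells. The share of Nfatc1 peaks at 4 h at 90.3% and 88.2% in the WT groups and at 45.4% in Lat-/- cells.

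The RCAN genes took different courses. Rcan1 (ENSMUSG00000022951.16, chromosome 16, 92391953 to 92470867, minus strand) encodes the calcineurin inhibitor known as a feedback target of NFAT. It had 13.6, 13.0 and 16.9 CPM at 0 h, 17.1, 15.6 and 15.2 CPM at 4 h, and 20.6, 23.4 and 25.3 CPM at 20 h in WT cells of the first experiment. The libraries at 20 h lay above all others, a 1.59-fold rise against 0 h (log2 change 0.67, SE 0.171, adjusted p = 0.000775), whereas at 4 h the change of Rcan1 was 0.14 (95% interval -0.22 to 0.49, adjusted p = 0.657). In sorted WT cells it measured 14.4, 16.4 and 15.5 CPM at 0 h, 17.8, 17.1 and 21.8 CPM at 4 h, and 22.2, 21.5 and 21.7 CPM at 20 h, and it rose by 0.50 at 20 h (SE 0.188, adjusted p = 0.0255). These calls on Rcan1 at 20 h were lost without replicate 2 in the CD5/CD6 experiment (0.54, adjusted p = 0.111) and, in the LAT experiment, without replicate 1 (0.46, adjusted p = 0.230), without replicate 2 (0.50, adjusted p = 0.0595) and under library totals (0.47, adjusted p = 0.0506).

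Rcan3 (ENSMUSG00000059713.12, chromosome 4, 135412308 to 135433853, minus strand), a related inhibitor gene, fell by 20 h. Per kilobase of exon it had 23.5 ± 1.91 CPM (SD, n = 3) in unstimulated WT cells of the CD5/CD6 experiment, against 4.71 ± 0.670 for Rcan1. It measured 124, 109 and 127 CPM at 0 h, 183, 119 and 123 CPM at 4 h, and 71.3, 54.7 and 51.9 CPM at 20 h in WT cells of the first experiment. The 20 h libraries lay below all others, a 2.02-fold fall against 0 h (log2 change -1.02, SE 0.203, adjusted p = 1.85e-05), and the 4 h change of Rcan3 was 0.24 (adjusted p = 0.468, or 0.37 with adjusted p = 0.0222 without replicate 3). Among sorted WT cells it measured 119, 90.1 and 135 CPM at 0 h, 199.6, 221 and 177 CPM at 4 h, and 83.2, 83.6 and 78.1 CPM at 20 h. There the libraries at 4 h stood above both other times, with a rise of 0.80 (adjusted p = 7.31e-07) followed by a fall of 1.29 to 20 h (adjusted p = 3.69e-16), which ended 0.49 below 0 h (adjusted p = 0.00393, lost without replicate 1 at adjusted p = 0.0925 and without replicate 3 at 0.160).

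Rcan1 and Nfatc2 each have an upstream and an internal start in RefSeq, and the deposited counts are per gene, so reads from the 2 starts cannot be told apart. The upstream RefSeq start of Rcan1 lies inside the counted gene, which runs to 92470867. The 50 bases that follow each Rcan1 start were found in no transcript of the gene in the GENCODE annotation, unlike those of Nfatc2. Because Rcan1 is described as an NFAT target at its internal start, the 250 bases before both of its starts are shown, with the bases before the upstream start of Nfatc2 for comparison, from RefSeq on GRCm38.p6, 5′ to 3′ along the gene. Capitals mark GGAAA, the core letters of NFAT sites, on either strand (read as TTTCC on the other).
Rcan1 internal start, chr16:92400079-92400328, minus strand: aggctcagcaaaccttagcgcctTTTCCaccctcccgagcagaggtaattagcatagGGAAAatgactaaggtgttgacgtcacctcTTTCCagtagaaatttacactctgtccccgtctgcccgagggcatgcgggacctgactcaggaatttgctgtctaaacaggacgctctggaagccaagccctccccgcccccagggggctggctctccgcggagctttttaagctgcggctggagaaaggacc
Rcan1 upstream start, chr16:92466170-92466419, minus strand: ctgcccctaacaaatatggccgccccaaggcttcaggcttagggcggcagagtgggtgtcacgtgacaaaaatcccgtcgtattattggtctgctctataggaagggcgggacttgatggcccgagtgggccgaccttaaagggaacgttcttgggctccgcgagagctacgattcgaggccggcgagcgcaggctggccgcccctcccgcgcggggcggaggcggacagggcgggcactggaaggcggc
Nfatc2 upstream start, chr2:168601658-168601907, minus strand: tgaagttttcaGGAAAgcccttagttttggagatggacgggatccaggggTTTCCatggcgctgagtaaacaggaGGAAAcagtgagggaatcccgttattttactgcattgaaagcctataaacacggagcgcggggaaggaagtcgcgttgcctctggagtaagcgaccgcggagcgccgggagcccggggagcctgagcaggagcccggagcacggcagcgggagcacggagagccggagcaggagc
The window before the internal Rcan1 start holds 3 matches, at 227, 193 and 163 bases before the start, together with 1 match of TGACTCA, the AP-1 letters, on the printed strand, which overlaps none of them. The window before the upstream Rcan1 start holds 0 matches of either, and that before Nfatc2 holds 3 of GGAAA, at 239, 200 and 175 bases. Among 32851 RefSeq promoter windows of the same length, 55.6% hold GGAAA on either strand, 6.39% hold it 3 times or more and 4.46% hold TGACTCA on either strand. Of the other member windows, that of Ppp3cb also holds 3 matches of GGAAA, that of Nfat5 2, those of Rcan3 and the internal start of Nfatc2 1 each, those of Nfatc3 1 and 0, and that of Ppp3r1 0. A match of these letters is a description of the sequence and was not measured as a site.

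By count, 5 of the 10 members changed at 4 h in WT cells of the first experiment (1 higher, 4 lower), against 28.5% of all 32290 genes tested. At 20 h against 0 h 6 changed (1 higher, 5 lower, 37.9% of all genes), and from 4 h to 20 h also 6 (2 higher, 4 lower, 30.5% of all genes). In sorted WT cells of the LAT experiment, 6 changed at 4 h (29% of 27780 genes tested), 7 at 20 h (34.7%) and 7 from 4 h to 20 h (29.5%). These shares count every gene with at least 1 read, of which 13738 and 12540 had a mean of at least 10 reads. All members had reads in every library, so shares here and below do not show how often comparably read genes changed. The median log2 change of the members was -0.08 at 4 h and -0.31 at 20 h in the first experiment and -0.24 and -0.34 in the second, beside a median of 0 over all genes tested in each comparison. Over genes with a mean of at least 10 reads the medians were -0.08, -0.07, -0.03 and -0.07.

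The knockouts of CD5 and CD6, receptors described as modulators of T-cell receptor signaling, left these courses in place. Over the 12 libraries of all 4 genotypes, Nfatc1 ran from 170.3 to 247 CPM at 0 h (median 225), 962 to 1506 CPM at 4 h (median 1238), then 145 to 294 CPM by 20 h (median 237). Ppp3ca ran from 72.3 to 95.4 CPM at 0 h (median 82.2), 36.9 to 44.7 CPM at 4 h (median 41.8), then 7.88 to 12.1 CPM by 20 h (median 11.0). Neither the times of Ppp3ca nor the 4 h values of Nfatc1 overlapped with another time in any genotype. Nfatc1 rose by 2.55 in Cd5-/-, 2.47 in Cd6-/- and 2.34 in dKO cells at 4 h, and Ppp3ca fell by 2.95, 2.97 and 2.96 at 20 h.

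In Cd5-/- cells, 5 members changed at 4 h, 7 at 20 h and 5 from 4 h to 20 h (28.4%, 38.1% and 30.8% of all genes). In Cd6-/- cells the counts were 4, 5 and 6 (27.2%, 36.8% and 30.6% of all genes), and in dKO cells 4, 6 and 5 (26.4%, 38.3% and 31.2%). Nfatc2 and Nfatc3 fell at both times in all 3 genotypes, by 1.36 to 1.49 for Nfatc2 and with log2 changes of -1.24 to -1.82 for Nfatc3 at 4 h. Rcan3 fell at 20 h by 1.32 in Cd5-/-, 1.06 in Cd6-/- and 1.26 in dKO cells, and Rcan1 rose by 0.74, 0.47 and 0.64. All 3 calls on Rcan1 were lost without replicate 2 (0.63, adjusted p = 0.0520, in Cd5-/-, 0.38, adjusted p = 0.349, in Cd6-/- and 0.62, adjusted p = 0.0599, in dKO cells). The call in Cd6-/- cells was also lost without replicate 1 (adjusted p = 0.153), under library totals (adjusted p = 0.0755), with the compared groups alone (adjusted p = 0.0702) and without the 0 h libraries 2 that went against their labels (0.35, adjusted p = 0.213), while without them Nfat5 passed at 20 h in Cd5-/- (0.84, adjusted p = 0.00567) and Cd6-/- cells (0.90, adjusted p = 0.00295). With the replicate numbers as a block, in comparisons where same-numbered libraries deviated together, Nfat5 also passed in Cd5-/- cells at 20 h against 0 h (0.60, adjusted p = 0.0043) and against 4 h (0.52, adjusted p = 0.0171), Ppp3r1 in Cd5-/- cells from 4 h to 20 h (0.39, adjusted p = 0.00449), and Ppp3cc (-0.42, adjusted p = 0.0496) and Rcan1 (0.41, adjusted p = 0.0157) in dKO cells at 4 h.

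Set directly against WT cells at the same time, none of the 10 members passed the test in any of the 3 CD5/CD6 knockouts at 0, 4 or 20 h by edgeR's quasi-likelihood test. Of these 90 values, 0 passed the adjusted threshold and 2 had an unadjusted p under 0.05, both of them Ppp3cc at 4 h (0.39 in Cd6-/- and 0.47 in dKO cells), and DESeq2 also called 0. The share of all genes that passed was 0.0619%, 0.0867% and 0.0217% at 0, 4 and 20 h for Cd5-/- cells, 0%, 0.0031% and 0.0186% for Cd6-/- cells, and 0.0279%, 0.0434% and 0.0465% for dKO cells. The 0 h comparisons include the libraries 2 that went against their labels, and without them 0.665% of all genes passed at 0 h for Cd5-/- and 0.0656% for Cd6-/- cells, again with 0 members. The largest of the 90 differences was 0.47 on the log2 scale, and the widest 95% interval reached 0.91, so differences of less than 2-fold remained possible. For Nfatc1, the differences from WT at 4 h lay between -0.16 (dKO) and 0.09 (Cd5-/-). Gamma delta T-cell markers summed to 56.9 to 62.0 CPM in Cd5-/- and 61.8 to 86.2 CPM in dKO cells at 4 h. They summed to 20.7 to 22.5 CPM in WT and 16.2 to 30.1 CPM in Cd6-/- cells, and their part in these comparisons was not tested. The test of whether the responses to stimulation differed from those of WT cells gave 0 of 10 members at 4 h and at 20 h in each knockout (0 with an unadjusted p under 0.05, and 0 by DESeq2), with 0.0031% and 0.0031% of all genes for Cd5-/-, 0% and 0.0031% for Cd6-/-, and 0% and 0% for dKO cells.

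**Figure D4:**
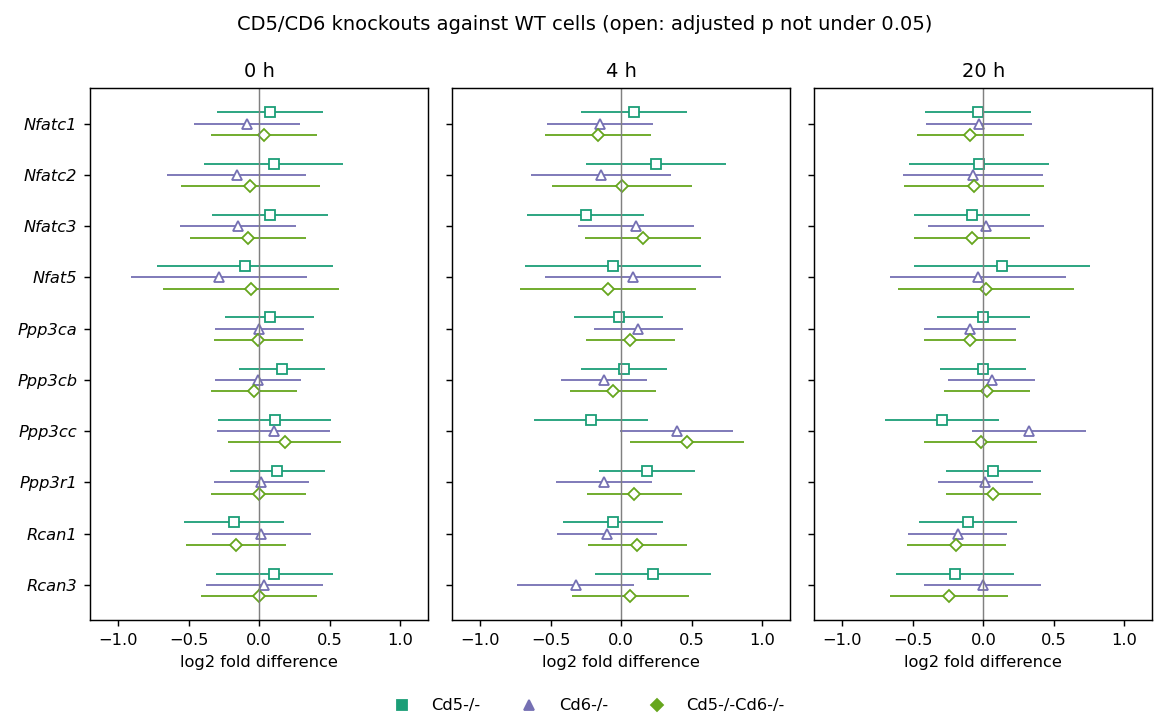
Log2 fold changes of the 10 members in Cd5-/-, Cd6-/- and dKO cells against WT cells (x axes) at 0, 4 and 20 h, with 95% intervals as bars. All 90 points lie within 0.47 of 0 and no adjusted p passed 0.05.

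Libraries numbered 3 were the lowest of their group at 20 h for Nfatc1, Nfatc2, Nfatc3 and Nfat5 in all 4 genotypes of the CD5/CD6 experiment. The same held for Ppp3ca at 20 h, for Nfatc1, Nfatc2 and Nfat5 at 4 h, and for Nfatc3 and Nfat5 at 0 h. It held at no time for Ppp3cb, Ppp3cc, Ppp3r1, Rcan1 or Rcan3. In WT cells the libraries 3 at 20 h had 178 CPM of Nfatc1 and 45.7 CPM of Nfat5, against 236 to 294 and 85.7 to 141 CPM in the others. Without replicate 3, Nfat5 (0.56, adjusted p = 0.000204) and Nfatc1 (0.32, adjusted p = 0.0333) were higher and Ppp3cc lower (-0.48, adjusted p = 0.00264) at 20 h than at 0 h in WT cells. Nfat5 also passed there without replicate 2 (0.63, adjusted p = 0.0224) and with the compared groups alone (0.44, adjusted p = 0.0278).

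Cells without LAT, the adaptor that links the T-cell receptor to phospholipase C and calcium release, differed from WT cells by more than 2-fold in the 4 h responses of Nfatc1 and Nfatc3 and in the 20 h responses of Nfatc3, Ppp3ca and Rcan3. At 0 h none of the 10 members passed the test between Lat-/- and WT cells (adjusted p from 0.938 to 1 by edgeR's quasi-likelihood test, no unadjusted p under 0.05 and 0 calls by DESeq2), where 1.59% of all genes passed, and the widest 95% interval of a member reached 0.64. At 4 h 7 members differed (6 higher and 1 lower in Lat-/- cells, 23.9% of all genes) and at 20 h 6 did (5 higher and 1 lower, 35.2%). The median difference of the members was 0.53 at 4 h and 0.37 at 20 h, beside 0 over all genes tested and 0.03 at both times over genes with a mean of at least 10 reads.

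Nfatc1 measured 176, 169 and 174 CPM in Lat-/- cells at 0 h, 293, 232 and 279 CPM at 4 h, and 215, 226 and 196 CPM at 20 h. The libraries at 4 h stood just above those at 20 h, and at 4 h they lay far below the 892 to 1343 CPM of WT cells. Nfatc1 rose 1.55-fold at 4 h in Lat-/- cells (log2 change 0.63, SE 0.148, adjusted p = 0.000279, or 0.57 with adjusted p = 0.061 without replicate 1). It was 4.24-fold lower than in WT cells at 4 h (log2 difference -2.09, SE 0.153, adjusted p = 4.21e-40) and differed by -0.15 at 20 h (adjusted p = 0.526). The 4 h responses of Nfatc1 themselves differed by -2.03 (SE 0.210, adjusted p = 1.2e-19).

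Nfatc3 moved the other way. In Lat-/- cells it measured 302, 312 and 366 CPM at 0 h, 432, 396 and 385 CPM at 4 h, and 529, 592 and 421 CPM at 20 h. At both stimulated times every Lat-/- library exceeded every WT library, and all were above the Lat-/- libraries at 0 h. The change of Nfatc3 at 4 h within Lat-/- cells did not pass the test. Nfatc3 was 2.20-fold higher than in WT cells at 4 h (log2 difference 1.14, SE 0.149, adjusted p = 6.12e-13) and 2.90-fold higher at 20 h (1.54, SE 0.151, adjusted p = 3.18e-23), and it rose within Lat-/- cells at 20 h by 0.65 (adjusted p = 0.000241), a call lost without replicate 1 (0.59, adjusted p = 0.0695). The responses of Nfatc3 at 20 h differed by 1.53 (adjusted p = 5.59e-12).

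Nfatc2 measured 128, 131 and 117 CPM at 0 h in Lat-/- cells, 94.7, 90.5 and 82.5 CPM at 4 h, and 112, 121 and 86.5 CPM at 20 h. All stimulated Lat-/- libraries lay above the stimulated WT libraries of the same time. Its fall at 4 h in Lat-/- cells was 0.49 (adjusted p = 0.0114), and its level was 2.10-fold that of WT cells at 4 h (adjusted p = 7.59e-11) and 1.89-fold at 20 h (adjusted p = 1.34e-08). Per kilobase, the NFATc sum of Lat-/- cells was 36.8% Nfatc1 at 0 h, 45.4% ± 2.83 at 4 h and 34.7% ± 2.33 at 20 h, and at 20 h 53.1% ± 1.89 of it was Nfatc3.

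Nfat5 measured 52.6, 40.3 and 46.0 CPM at 0 h in Lat-/- cells, 34.9, 26.5 and 29.9 CPM at 4 h, and 58.1, 48.5 and 32.3 CPM at 20 h. Its highest Lat-/- library at 20 h lay below the lowest WT library, and Nfat5 was lower by 0.70 at 20 h (log2 difference -0.70, adjusted p = 4.73e-05). The difference between the 20 h responses of Nfat5 (-0.69, adjusted p = 0.00969) was lost with a filter on low counts (adjusted p = 0.130), in DESeq2 (adjusted p = 0.116), without replicate 2 (-0.46, adjusted p = 0.214) and without the Lat-/- 20 h library 3 (-0.49, adjusted p = 0.113), which was the lowest of its group in 8 of the 10 members.

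Ppp3ca gave the largest difference among the members. Lat-/- cells measured 72.4, 90.9 and 82.6 CPM at 0 h, 72.2, 83.7 and 74.3 CPM at 4 h, and 102, 110.0 and 88.7 CPM at 20 h. Stimulated and unstimulated Lat-/- libraries overlapped, whereas at 20 h they stood at 88.7 CPM or more beside 11.9 to 14.4 CPM in WT cells. The difference in Ppp3ca was 1.76-fold at 4 h (log2 difference 0.81, adjusted p = 1.75e-06) and 7.48-fold at 20 h (2.90, SE 0.167, adjusted p = 2.02e-65), and within Lat-/- cells the changes were -0.10 and 0.29 (adjusted p = 0.826 and 0.302). The 20 h responses of Ppp3ca differed by 2.88 (SE 0.224, adjusted p = 8.61e-36), and Ppp3ca made up 20.0% ± 1.22 of the catalytic sum per kilobase at 20 h in Lat-/- cells.

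The other calcineurin genes differed less. Ppp3cc had 41.9, 41.1 and 55.5 CPM at 4 h in Lat-/- cells, all above the WT libraries at 26.1 to 31.2 CPM, a difference of 0.69 (adjusted p = 0.000104), and at 20 h the difference of Ppp3cc was 0.17 (adjusted p = 0.476). Ppp3cb had 172, 171 and 155 CPM at 20 h in Lat-/- cells against 112 to 125 CPM in WT cells, a difference of 0.51 (adjusted p = 0.00249, or 0.43 with adjusted p = 0.110 without replicate 1). Ppp3r1 reached 236 CPM at 4 h in Lat-/- cells, where all 3 libraries lay above the WT libraries at 162 to 172 CPM, and its difference of 0.37 (adjusted p = 0.0493) was lost without replicate 1 (adjusted p = 0.374) and without replicate 2 (adjusted p = 0.0641).

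Of the RCAN genes, Rcan3 was higher without LAT and Rcan1 did not pass the test. Rcan3 measured 109, 108 and 112 CPM in Lat-/- cells at 0 h, 392, 373 and 249 CPM at 4 h, and 215, 263 and 174 CPM at 20 h. The 4 h and 20 h libraries all lay above those at 0 h and overlapped each other, and at both times each Lat-/- library lay above every WT library. Rcan3 rose 3.08-fold at 4 h within Lat-/- cells (log2 change 1.62, SE 0.152, adjusted p = 2.87e-24) and remained 1.98-fold above 0 h at 20 h (0.98, adjusted p = 4.06e-09). Against WT cells it was 1.70-fold higher at 4 h (0.76, adjusted p = 3.19e-06) and 2.66-fold higher at 20 h (1.41, SE 0.152, adjusted p = 1.64e-19), and the 20 h responses of Rcan3 differed by 1.47 (adjusted p = 5.73e-11). Rcan1 measured 17.4, 20.2 and 16.6 CPM at 0 h, 15.0, 17.9 and 20.5 CPM at 4 h, and 17.5, 17.8 and 17.6 CPM at 20 h, and at 20 h it was below the 21.5 to 22.2 CPM of WT cells without passing the test (-0.31, 95% interval -0.71 to 0.10, adjusted p = 0.228, or -0.35 with adjusted p = 0.0279 by DESeq2).

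**Figure D5:**
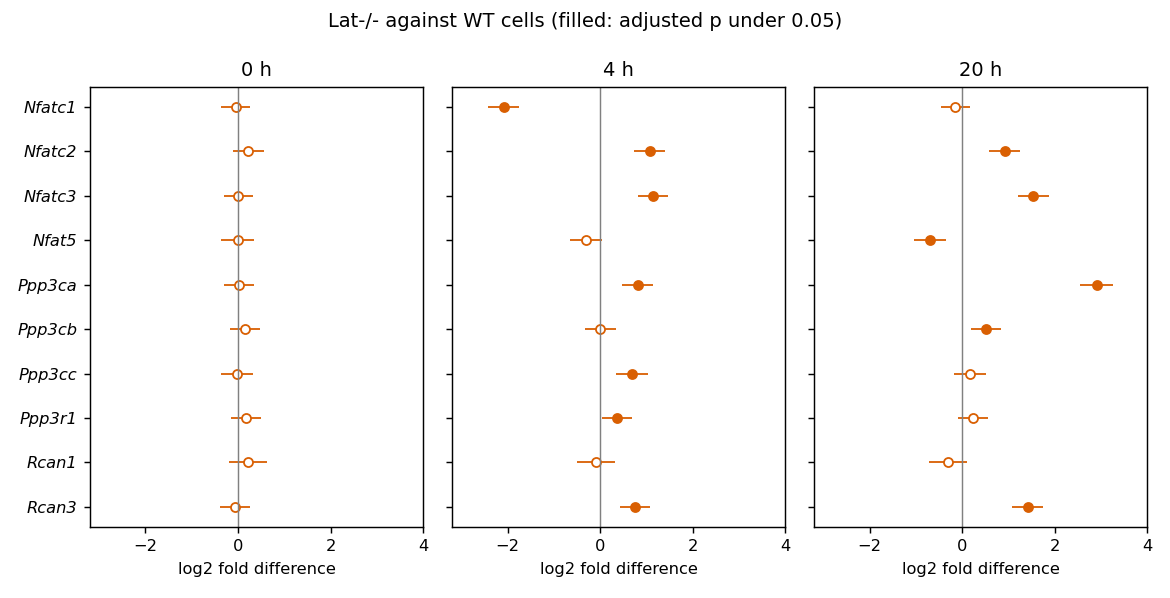
Log2 fold changes of the 10 members in Lat-/- cells against WT cells (x axis) at 0, 4 and 20 h, with 95% intervals as bars. At 0 h all lie within 0.23 of 0, at 4 h Nfatc1 stands at -2.09, and at 20 h Ppp3ca stands at 2.90 with Nfatc3 and Rcan3 at 1.54 and 1.41.

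Within Lat-/- cells, 5 members changed at 4 h (2 higher, 3 lower, 15.4% of all genes), 2 at 20 h (both higher, 10.7%) and 3 from 4 h to 20 h (10.1%). The responses of 6 members at 4 h and 5 at 20 h differed between Lat-/- and WT cells, against 15% and 26.3% of all genes. Without replicate 1, 2 response differences passed at 4 h, and those of Nfatc2 (0.72, adjusted p = 0.142), Ppp3ca (0.79, adjusted p = 0.0963), Ppp3cc (0.72, adjusted p = 0.157) and Rcan3 (0.71, adjusted p = 0.134) did not. The naive T-cell markers Ccr7, Lef1 and Tcf7 moved with these results, summing to 1362 to 2536 CPM at 4 h and 2110 to 2247 at 20 h in WT cells and to 4259 to 5474 and 4894 to 5626 CPM in Lat-/- cells. The regulatory T-cell markers Foxp3 and Ikzf2 summed to 34.5 to 91.1 CPM in WT and 4.53 to 34.8 CPM in Lat-/- cells over the 3 times, and their part in the results was not tested.

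The genes that carry the calcium signal to calcineurin changed in both directions in WT cells. Beside the list counts below, 28.5% and 29% of all genes changed at 4 h in WT cells of the 2 experiments, and 37.9% and 34.7% at 20 h. Within Lat-/- cells 15.4% changed at 4 h and 10.7% at 20 h. Against WT cells, 23.9% differed in Lat-/- cells at 4 h and 35.2% at 20 h. Of 13 genes of calcium entry and release, 4 rose and 8 fell at 4 h in the CD5/CD6 experiment (median log2 change -1.26) and 5 rose and 8 fell in the LAT experiment (median -0.95). At the extremes were Orai1, the pore of the plasma membrane calcium channel, which rose by 3.17 and 3.03 at 4 h, and the related Orai2, which fell by 2.90 and 1.98 at 4 h and by 3.99 and 2.99 at 20 h. Orai1 went from 62.4 CPM at 0 h to 512 at 4 h and 140 at 20 h in sorted WT cells, and from 63.4 to 125 and 90.9 CPM in Lat-/- cells. Itpr3, an inositol trisphosphate receptor gene, fell by 2.43 and 2.23 at 4 h, while Atp2a2, the gene of a calcium pump of the endoplasmic reticulum, was the top gene at 20 h (1.81 and 1.66).

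In Lat-/- cells against WT cells, 6 of the 13 calcium genes were higher and 4 lower at 4 h, and 9 were higher and 3 lower at 20 h, with median differences of 0.41 and 0.94. Orai1 was lower by 2.03 at 4 h (log2 difference -2.03), Orai2 was higher by 1.50 at 4 h and by 3.10 at 20 h (142 against 16.6 CPM), and Atp2b4, a plasma membrane calcium pump gene, had the lowest difference at 20 h (-1.79). At 0 h 0 of the 13 differed. Within Lat-/- cells, 4 rose and 6 fell at 4 h, from Atp2b4 (1.10) to Atp2a3, a calcium pump gene of the endoplasmic reticulum (-1.92), and 3 rose and 4 fell by 20 h. Among 7 calmodulin genes and calcineurin-binding proteins, 2 rose and 2 fell in WT cells at 4 h in each experiment (medians -0.02 and 0.08). Fkbp1a, the target of the calcineurin-blocking drug tacrolimus, had the highest change (1.55 and 1.44), and Cabin1, a calcineurin-binding inhibitor gene, fell by 1.01 in the LAT experiment. Fkbp1a was lower in Lat-/- cells by 1.31 at 4 h and 1.79 at 20 h, and in Lat-/- cells 0 of the 7 changed by 20 h.

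Of 9 genes on a list of NFAT kinases, nuclear transport factors and Homer genes, 2 rose and 3 fell in WT cells of the first experiment at both 4 h and 20 h (medians -0.38 and -0.13). Without 1 gene below a floor of 3 reads per library at 0 h and 4 h, the 4 h median was -0.27. Kpnb1, which encodes the import factor importin beta, rose by 1.23 at 4 h and 1.79 at 20 h, and Dyrk2, a kinase gene, fell by 1.96 at 20 h. In sorted WT cells the list medians were 0.04 at 4 h and -0.27 at 20 h, or -0.07 and -0.30 without 1 gene below the floor. In Lat-/- against WT cells, 4 were higher and 2 lower at each stimulated time, among them Gsk3b, a kinase known to act on NFAT, higher by 0.83 at 4 h, and Dyrk2, higher by 2.06 at 20 h. Within Lat-/- cells 1 of the 9 rose at 4 h, Homer3 (0.84). Homer2 and, in the list above, Akap5 were below 1 CPM in each of these groups and are given no fold change. Of the 4 further family genes on the list, Ppp3r2 had no read, Nfatc4 and Rcan2 each had few reads in 1 experiment and none in the other, and Nfatc2ip measured 38.8 CPM at 0 h and 27.8 CPM at 4 h in WT cells of the first experiment, where it fell by 0.48.

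Textbook NFAT target genes of T cells were listed with earlier results of these data known, so their counts are a description. At 4 h in WT cells, 10 of 10 rose in the CD5/CD6 experiment (median log2 change 3.85, or 3.35 with Il3 at its lower bound). In the LAT experiment 9 of 10 rose (median 4.48, or 3.57). Of all genes, 28.5% and 29% changed in either direction. Il3, a cytokine gene, had no read in any unstimulated WT library and was at least 12.4-fold higher at 4 h in the first and at least 9.66-fold higher in the second experiment, against a floor of 3 reads per library. Il2, the gene of the T-cell growth factor, went from 0.162 CPM at 0 h to 45.8 at 4 h and 165 at 20 h in the CD5/CD6 experiment. At 20 h 6 of the 10 targets were higher in each experiment. In Lat-/- cells 7 of the 10 rose at 4 h, Egr3, a zinc finger factor gene, from 1.27 to 181 CPM (log2 change 7.14), and 4 were higher at 20 h. Cd40lg, the CD40 ligand gene, was the lowest of the targets at 20 h in sorted WT cells (-0.40) and in Lat-/- cells (-0.46).

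Against WT cells, 8 of the 10 targets were lower and 1 higher in Lat-/- cells at 4 h, and 6 were lower and 4 higher at 20 h. Il3 had no read in all 9 Lat-/- libraries, at least 7.93-fold lower than WT at 4 h, Csf2 had no read in the Lat-/- libraries at 4 h, and Il2 was lower by 5.05 at 4 h (0.883 against 29.1 CPM). Ifng, the interferon gamma gene, was the highest at both times in this comparison (3.04 and 3.03, with 7.08 against 0.865 CPM at 4 h). At 0 h, 1 target was higher in Lat-/- cells and 2 were lower, the lowest being Egr3 (1.27 against 32.0 CPM, log2 difference -4.64). The 3 osmotic target genes of NFAT5 gave 2 rises at 4 h in the CD5/CD6 experiment and 1 in the LAT experiment (medians 0.61 and 0.34), with Akr1b3 lowest at 0.13 and -0.25, neither past the test. Slc5a3, an inositol transporter gene, rose by 4.31 and 4.44 in WT and by 2.59 in Lat-/- cells, where it was lower than in WT by 1.88 at 4 h, while Nfat5 itself did not pass the test at 4 h in WT cells.

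Genes with the most similar pattern were ranked among 10851 genes by the lower of 2 Pearson correlations of group-mean log2 CPM, over the 12 groups of the CD5/CD6 experiment and the 6 groups of the LAT experiment, as a description. The groups share WT responses to the same stimulus, so many genes correlate highly. Nfatc1 was closest to Cdk17 (r = 1.00 and 0.989), followed by Sbno1 and Fbxo34, and Ppp3ca to Foxj2 (r = 0.996 and 0.995), Zc3h6 and Pnrc2. Nfatc3 was closest to Rassf3 (r = 0.99 and 0.996), Mib2 and Mat2b. Rcan3 was closest to Neurl3 (r = 0.973 and 0.971), Slc35f6 and Blcap, and Ppp3cc to Glipr2, Myo6 and Snx10.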

How the data were processed

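RNA was measured in 36 libraries of the CD5/CD6 experiment and 18 of the LAT experiment, with 3 per genotype and time, grouped by the deposited labels. The authors had stranded mRNA libraries made by a sequencing platform, and their steps were DimerRemover for trimming of single reads, STAR for alignment (GRCm38) and featureCounts for counting. What they deposited are unscaled gene counts for each library, without pooling, each experiment in its own file. Counting options for strand and for reads shared between genes are not given in the sources used here, so it is unknown to which gene reads from overlapping exons went. All sample columns were assigned, and 0 were left unused. Of 55385 identifiers, 55144 were named with the GENCODE annotation of GRCm38, and all 10 members were found.

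The software was edgeR 4.0.16, run under R 4.3.3 together with DESeq2 1.42.0 and limma 3.58.1, and figures were drawn with matplotlib 3.10.9 in Python 3.11.15. Genes with at least 1 read per experiment were kept (32290 and 27780). Libraries were scaled with TMM factors, all libraries of an experiment entered 1 fit, and each contrast was taken from edgeR's quasi-likelihood test, adjusted over all genes by the Benjamini-Hochberg method, the threshold being an adjusted p of 0.05. The tables were not fitted together. The standard error was taken as the log2 change divided by the square root of the F statistic, and 95% intervals use 24 and 12 residual degrees of freedom. Depth ran from 17784644 to 45222554 counts per library, and the floor of 3 reads covers counting error only. Replicate pairs differed by more than counting noise (chi-square per degree of freedom from 12.8 in the CD5/CD6 and 3.02 in the LAT experiment). The replicates are described as independently prepared samples, without saying whether each came from separate animals. The test shares information on the spread among genes, so p-values measure a spread between such preparations that is not each gene's own alone. The 95% intervals use the residual degrees of freedom only, so the interval and the p-value of a member need not match. The procedure was tested on simulated data.

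The text names the 10 members, the targeted genes, the extremes of fixed pathway lists and the 3 genes closest in pattern to each member that changed over 2-fold in WT cells. The genes closest in pattern to Nfatc2 are not reported here. The members and lists were chosen with earlier results of these data known. Alternatives were a fold threshold of 2, RLE factors, library totals, filterByExpr, DESeq2, the compared groups alone, the replicate block, a prior count of 0.25 in place of 2 for pattern similarity, leaving out each replicate number and leaving out the 0 h libraries 2 labelled Cd5-/- and Cd6-/-. A fit without the Lat-/- 20 h library 3 was added after seeing the data. Whether same-numbered libraries deviated together was checked from their deviations from group means, and in 14 of 38 comparisons every pair had a correlation above 0.1.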

Additional observations from a re-analysis of the deposited data

Results flagged for a closer look

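The responses of 11 member and time pairs differed between Lat-/- and WT cells by the interaction term of edgeR's quasi-likelihood test, adjusted by the Benjamini-Hochberg method, each given as the log2 response of Lat-/- cells minus that of WT cells. At 4 h Nfatc1 differed by -2.03, Nfatc3 by 1.13, Nfatc2 by 0.84, Rcan3 by 0.82, Ppp3ca by 0.79 and Ppp3cc by 0.71. At 20 h Ppp3ca differed by 2.88, Nfatc3 by 1.53, Rcan3 by 1.47, Nfatc2 by 0.69 and Nfat5 by -0.69. Without replicate 1, the 4 h differences of Nfatc2, Rcan3, Ppp3ca and Ppp3cc did not pass (0.72, 0.71, 0.79 and 0.72, adjusted p = 0.142, 0.134, 0.0963 and 0.157). The 20 h difference of Nfatc2 did not pass without replicate 1 (0.67, adjusted p = 0.115) or without replicate 3 (0.58, adjusted p = 0.0651), and that of Nfat5 did not pass without replicate 2 (-0.46, adjusted p = 0.214), without the Lat-/- 20 h library 3 (-0.49, adjusted p = 0.113), with filterByExpr (adjusted p = 0.130) or in DESeq2 (adjusted p = 0.116). The differences of Nfatc1 at 4 h, of Nfatc3 at both times, and of Ppp3ca and Rcan3 at 20 h passed under every alternative run.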

How the results depend on the processing

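Of the 380 values of a member in a comparison, 0 reversed under any alternative, and all 380 kept their call under RLE factors. Under library totals, 2 lost and 11 gained a call, and the median of all genes moved by up to 0.245 on the log2 scale. Under filterByExpr 5 were lost and 7 gained, under DESeq2 4 and 7, and with the compared groups alone 2 and 11. Leaving out the 0 h libraries 2 changed 6 of 270 calls, and leaving out the Lat-/- 20 h library 3 changed 4 of 110. With a prior count of 0.25, 2 of the 3 genes closest to Rcan1 in pattern stayed, and 3 of 3 for the other members. The lowest count of a member in a library was 208 reads (Ppp3ca).

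With a fold change over 2 also required, 57 calls were lost. The counts of members from 4 h to 20 h became 3 in WT (from 6, with 21% of all genes called), 3 in Cd5-/- (from 5, 21.3%), 2 in Cd6-/- (from 6, 20.8%) and 3 in dKO cells (from 5, 21.4%), and that of Cd5-/- cells at 20 h against 0 h became 4 (from 7, 30%). In sorted WT cells they became 3 at 4 h (from 6, 17.3%), 1 at 20 h (from 7, 23.5%) and 3 from 4 h to 20 h (from 7, 17.2%). In Lat-/- cells they became 1 (from 5, 6.7%), 0 (from 2, 4.21%) and 0 (from 3, 4.1%), and between Lat-/- and WT cells 3 at 4 h (from 7, 11.7%) and 3 at 20 h (from 6, 24.4%). Response differences became 2 at 4 h (from 6, 8.71%) and 3 at 20 h (from 5, 19.5%).

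The replicate block gained 15 calls and lost 0. It raised the counts in Cd6-/- cells from 4 to 7 at 4 h and from 5 to 8 at 20 h (30.5% and 38.6% of all genes), although same-numbered libraries did not all deviate together in these comparisons, and outside Cd6-/- cells it kept every count within 1.5 times. In comparisons with shared deviations it changed no call beyond those given in the report.

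Leaving out each replicate in turn gave 4 to 9 members in Cd5-/- cells from 4 h to 20 h (9 without replicate 3, with 31.8% of all genes called), 4 to 6 in sorted WT cells at 20 h (4 without replicate 1, 28.5%), and in Lat-/- cells 2 to 6 at 4 h (2 without replicate 1, 8.1%), 1 to 2 at 20 h (1 without replicate 1, 5.09%) and 0 to 4 from 4 h to 20 h (by edgeR 0 without replicate 1, 4.63%, and 1 without replicate 2, 7.48%). Response differences at 4 h in the LAT experiment numbered 2 to 6, with 2 without replicate 1 (7.8%). The causes of these changes were not tested. Counts of 0 against WT cells in the CD5/CD6 experiment stayed at 0 in all these fits.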
